A study of Mus musculus with 4 samples.

Results

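Interferon-stimulated genes are the genes that cells switch on when interferon binds its receptors. Of these, 41 chosen by symbol, but with earlier results of these data known, were followed through 4 arrays of mouse CD4 T cells. Probes were assigned to them through the RefSeq transcript accession given on the array. Of the 41 genes, 39 had at least 1 named probe among 19892 named genes, and 38 lay above the floor on at least 1 array, the floor being a level of -5.01 below which a signal was not read. No probe was matched to Mx1 or Mx2, Slfn5 was at the floor on all arrays, and Ifi44 was at the floor on the unstimulated wildtype array. The remaining 37 were above the floor on every array.

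Type I interferons bind the receptor chains IFNAR1 and IFNAR2, whose kinases JAK1 and TYK2 act on signalling factors that include STAT2. With IRF9, STAT2 is part of a complex that binds the interferon-stimulated response element (ISRE) of genes such as Ifit1, Isg15 and Mx1. Interferon gamma, which activated T cells secrete, signals through IFNGR1 and IFNGR2 to genes with a gamma-activated site (GAS), and it drives the guanylate-binding proteins and the immunity-related GTPases.

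The samples were RNA of CD4 T cells, the helper lymphocytes, from lymph nodes of male mice aged 7 weeks. Mice were wildtype or knockout for Med23, a subunit of Mediator, the bridge between transcription factors and the polymerase, and cells were freshly isolated and then left unstimulated or stimulated for 6 h, the series naming the T cell receptor. How the knockout was made, in which cells it acts, how the cells were purified, what the stimulus was and whether animals were pooled is not stated in the material at hand. The 4 groups had 1 single-colour array each and no replicate, so differences are given by size alone, without a test, and fewer cells of a type and less RNA per cell cannot be told apart.

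Levels are given as log2 signal minus that of the 75th percentile on the same array, and a gene counts as higher or lower in a comparison at a difference of at least 2-fold, that is log2 1. Levels are compared within a gene and never between genes, since each probe has its own brightness. In probes spotted 10 times, the SD of a log2 difference between single spots of a pair of arrays was 0.0964 to 0.109 at levels above 1 and 0.378 to 0.469 between -3 and -1, which covers noise within an array and not the spread between animals. The Med23 probe had a level of -1.59 on the unstimulated wildtype array and -1.66 on the unstimulated array labelled knockout, against -0.75 and -2.29 on the stimulated arrays. Its position relative to the deleted part is not known here, and the arrays are therefore called labelled knockout.

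The stimulated wildtype array stood apart from the other arrays in its brightness and in markers of other cell types. Its 75th percentile of raw signal was 680.8, against 243.7 to 332.6 on the other arrays. The summed level of 15 neutrophil genes was 8.32 there and 1.49 to 1.79 elsewhere, with all 15 genes at least 2-fold higher on it than on each other array, while 7 or 8 of them, S100a8, Ltf and Retnlg included, were at the floor on each of the others. For 9 red cell genes the sum was 7.28 against -0.31 to -0.15, with 7 genes higher and 6 or 7 at the floor elsewhere, and for 7 monocyte and macrophage genes 3.1 against -0.91 to -0.51, with 3 genes higher. The 8 T cell genes summed to 8.85 to 9.59 on the 4 arrays with none at the floor. Sums of the other lists ranged from -2.33 to -0.43 for 2 CD8 T cell genes, -0.18 to 0.93 for 8 B cell genes, 5.22 to 6.71 for 7 dendritic cell genes, 3.59 to 4.01 for 6 plasmacytoid dendritic cell genes without Bst2, and 0.18 to 1.14 for 6 natural killer cell genes. A sum can rest on a few bright genes. The median level was -3.87 to -2.89 over the dendritic cell genes, with Xcr1 and Clec9a at the floor on every array. Over the plasmacytoid dendritic cell genes it was -2.57 to -2.17. Neutrophils and monocytes also express interferon-stimulated genes, and the part of the neutrophil, red cell and monocyte markers in any difference that uses the stimulated wildtype array was not tested. The comparison of stimulated with unstimulated cells labelled knockout, and that of the unstimulated arrays, do not use it. Both use the unstimulated array labelled knockout, which had the highest B cell sum, 0.93 against -0.18 to 0.12. On it 2 B cell genes were at least 2-fold higher than on each other array, and their part was not tested either.

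**Figure D1:**
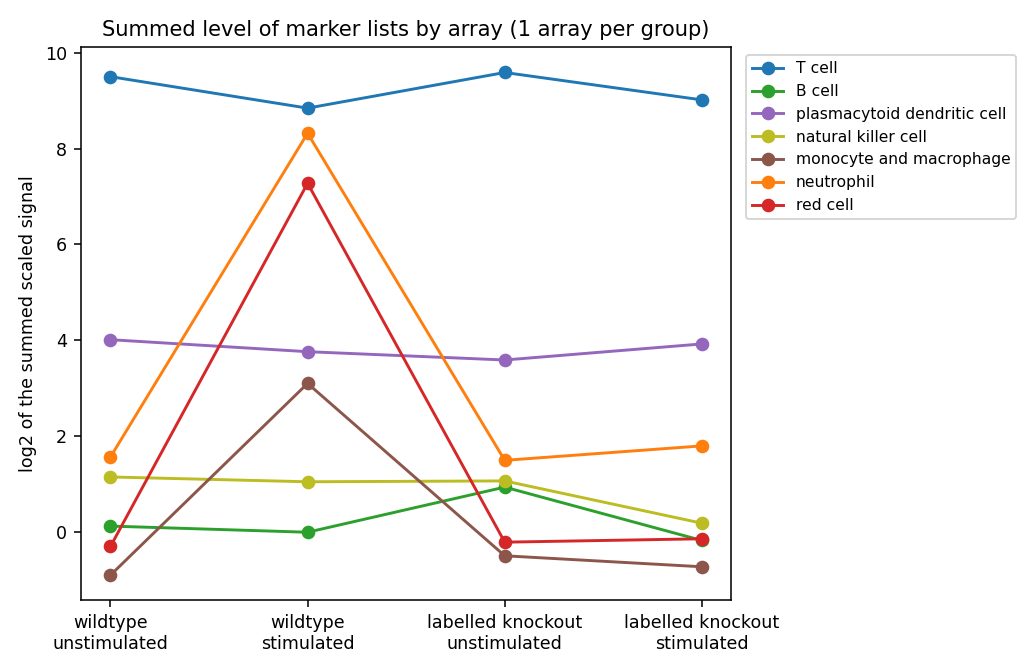
Summed level of each cell type's marker genes (log2 of the summed scaled signal, vertical axis) on each of the 4 arrays (horizontal axis, 1 array per group), 1 line per list. The neutrophil sum is 8.32 and the red cell sum 7.28 on the stimulated wildtype array, while the T cell sum stays between 8.85 and 9.59.

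The promoters of 6 members that the results turn on are shown, because they hold the elements through which the interferon pathways act. Each window runs from 250 bases before to 50 bases after the gene's start, 5′ to 3′ on the gene's strand, from RefSeq on build GRCm38.p6, and capitals mark matches to the ISRE core GAAANNGAAA on either strand and to the GAS core TTCNNNGAA, which is its own reverse complement. Gbp2 and Igtp encode interferon-inducible GTPases and lie at chr3:142620413-142620712 on the plus strand and chr11:58199306-58199605 on the plus strand. Isg15, a ubiquitin-like modifier, and Ifit1, which binds viral RNA, lie at chr4:156200769-156201068 on the minus strand and chr19:34640639-34640938 on the plus strand. Ifih1, the RNA sensor MDA5, and Eif2ak2, the kinase PKR, lie at chr2:62646206-62646505 on the minus strand and chr17:78882523-78882822 on the minus strand.
Gbp2: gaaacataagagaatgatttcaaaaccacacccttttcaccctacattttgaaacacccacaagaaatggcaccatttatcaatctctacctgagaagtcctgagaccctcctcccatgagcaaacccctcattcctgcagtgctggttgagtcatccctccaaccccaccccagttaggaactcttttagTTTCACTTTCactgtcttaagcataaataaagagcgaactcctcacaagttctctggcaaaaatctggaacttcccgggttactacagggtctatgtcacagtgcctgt
Igtp: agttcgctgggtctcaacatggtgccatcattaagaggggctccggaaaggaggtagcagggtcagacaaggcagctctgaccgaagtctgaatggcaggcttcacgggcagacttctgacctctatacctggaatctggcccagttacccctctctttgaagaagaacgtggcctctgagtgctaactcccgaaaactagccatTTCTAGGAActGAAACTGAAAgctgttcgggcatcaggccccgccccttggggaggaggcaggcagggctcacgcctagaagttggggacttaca
Isg15: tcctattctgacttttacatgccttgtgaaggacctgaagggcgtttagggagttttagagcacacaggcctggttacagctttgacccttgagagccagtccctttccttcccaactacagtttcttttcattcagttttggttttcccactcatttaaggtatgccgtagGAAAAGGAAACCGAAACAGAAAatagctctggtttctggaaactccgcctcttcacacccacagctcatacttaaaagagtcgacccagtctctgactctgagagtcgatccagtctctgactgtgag
Ifit1: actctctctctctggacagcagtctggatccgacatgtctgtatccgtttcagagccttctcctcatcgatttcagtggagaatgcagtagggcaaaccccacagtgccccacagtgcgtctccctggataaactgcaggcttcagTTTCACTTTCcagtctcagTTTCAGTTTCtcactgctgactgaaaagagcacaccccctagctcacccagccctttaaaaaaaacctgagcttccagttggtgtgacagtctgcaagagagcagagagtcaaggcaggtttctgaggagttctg
Ifih1: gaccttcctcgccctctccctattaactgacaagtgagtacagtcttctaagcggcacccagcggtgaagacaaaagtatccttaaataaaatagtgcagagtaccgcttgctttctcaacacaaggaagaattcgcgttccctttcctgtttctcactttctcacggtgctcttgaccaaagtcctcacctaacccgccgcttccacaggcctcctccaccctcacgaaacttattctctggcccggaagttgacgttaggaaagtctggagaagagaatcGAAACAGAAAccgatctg
Eif2ak2: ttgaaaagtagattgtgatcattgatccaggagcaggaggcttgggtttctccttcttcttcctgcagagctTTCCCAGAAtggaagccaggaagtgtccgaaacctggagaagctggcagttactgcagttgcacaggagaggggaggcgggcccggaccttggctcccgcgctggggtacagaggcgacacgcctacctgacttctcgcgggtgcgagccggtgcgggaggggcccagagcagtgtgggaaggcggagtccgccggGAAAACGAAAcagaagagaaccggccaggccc

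In these windows the ISRE core began 59 bases before the start in Gbp2 and at positions -104 and -85 in Ifit1. Isg15 held 3 overlapping matches at -78, -72 and -66, drawn as 1 run of capitals. Igtp held a GAS core at -45 directly before its ISRE core at -34, and its chromosomal neighbour Irgm2 had the same order, at -75 and -64. The ISRE core lay behind the start in Ifih1, at position 32, and in Eif2ak2, at position 18, where a GAS core stood at -178. A promoter window was at hand for 29 of the 41 members. The ISRE core was found in 14 of them (48.3%), against 3.99% of 27025 genes, and the GAS core in 8 (27.6%), against 9.55%, with 4 members holding both. All 5 GTPase members with a window held the ISRE core, as did 5 of 10 antiviral effectors. Of the members at least 2-fold different in some comparison, 8 of 14 with a window held it, and of those different in none, 6 of 15. The 15 include Slfn5, which held the core but was at the floor on all arrays. A match describes these letters in this window only.

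**Figure D2:**
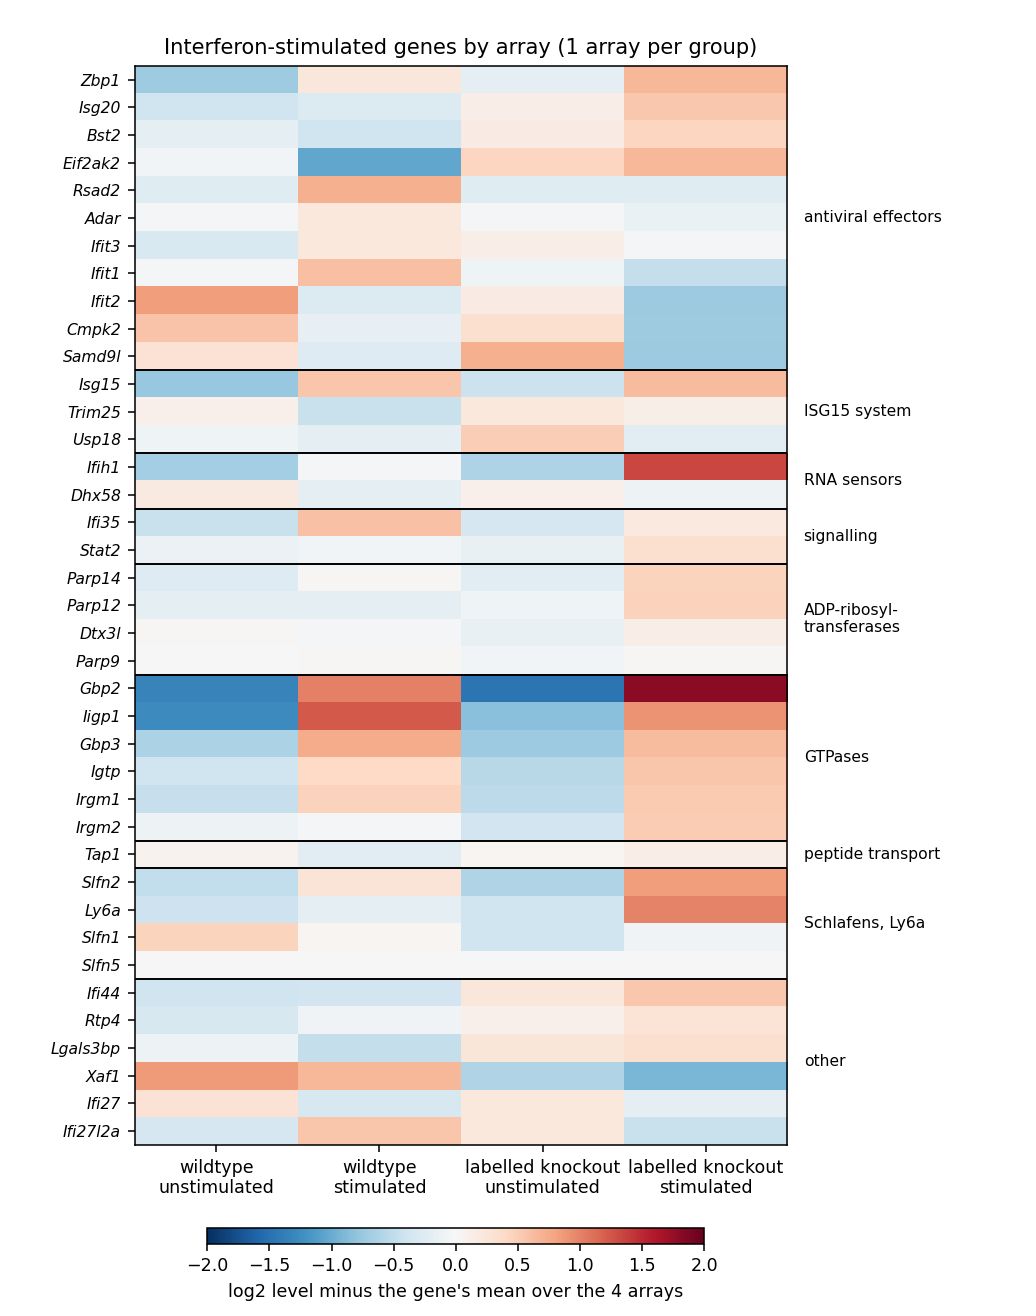
Level of 39 members on each array (columns, 1 array per group) as the log2 difference from the gene's own mean over the 4 arrays (colour), grouped by role (rows). The GTPases Gbp2, Gbp3, Iigp1, Igtp and Irgm1 are low on both unstimulated arrays and high on both stimulated ones, and Ifih1 and Ly6a are at least 2-fold higher on the stimulated array labelled knockout than on each other array.

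The first question is what stimulation did to the members in each genotype. In wildtype cells 5 of 38 measured members were at least 2-fold higher after stimulation (13.2%), namely Iigp1, Gbp2, Gbp3, Isg15 and Ifi35, where 14.2% of 14616 measured genes were. Only Ifit2 was 2-fold lower (2.63%), where 12.8% of all genes were, and the median log2 difference was 0.11 over the members and -0.02 over all genes. In cells labelled knockout 9 members were higher (23.7%), namely Gbp2, Ifih1, Iigp1, Slfn2, Ly6a, Gbp3, Igtp, Isg15 and Irgm1, where 13.5% of 14226 genes were. Samd9l and Cmpk2 were lower (5.26%), where 13.8% of all genes were, and the medians were 0.27 and 0.05. The share of higher members was thus near the background in wildtype and above it in cells labelled knockout. The latter count rests partly on values near the 2-fold line: it was 6 in the authors' normalized values (16.7%, against 12.7% of all genes), with quantile normalization and with the 75th percentile taken over probes above the floor. Among all genes past 2-fold in wildtype 52.6% were higher, or 41.6% in the authors' values, 36.2% with median scaling and 18.8% with a pseudocount in place of the floor.

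Between the genotypes, 4 members were higher after stimulation in both (Isg15, Gbp2, Gbp3 and Iigp1), none was lower in both, none was 2-fold different in opposite directions, and 25 reached 2-fold in neither. The sign of the difference was shared by 26 of 38. No array enters both stimulation differences, which had a Pearson r of 0.714 and a Spearman rho of 0.635 across the 38 members, which are genes and not independent replicates. On the stimulated array labelled knockout 20 members had their highest level, on the stimulated wildtype array 9, and on the unstimulated arrays 6 (wildtype) and 3 (labelled knockout). None of these counts and correlations was computed over all genes, so whether they set the members apart from other genes is not known.

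**Figure D3:**
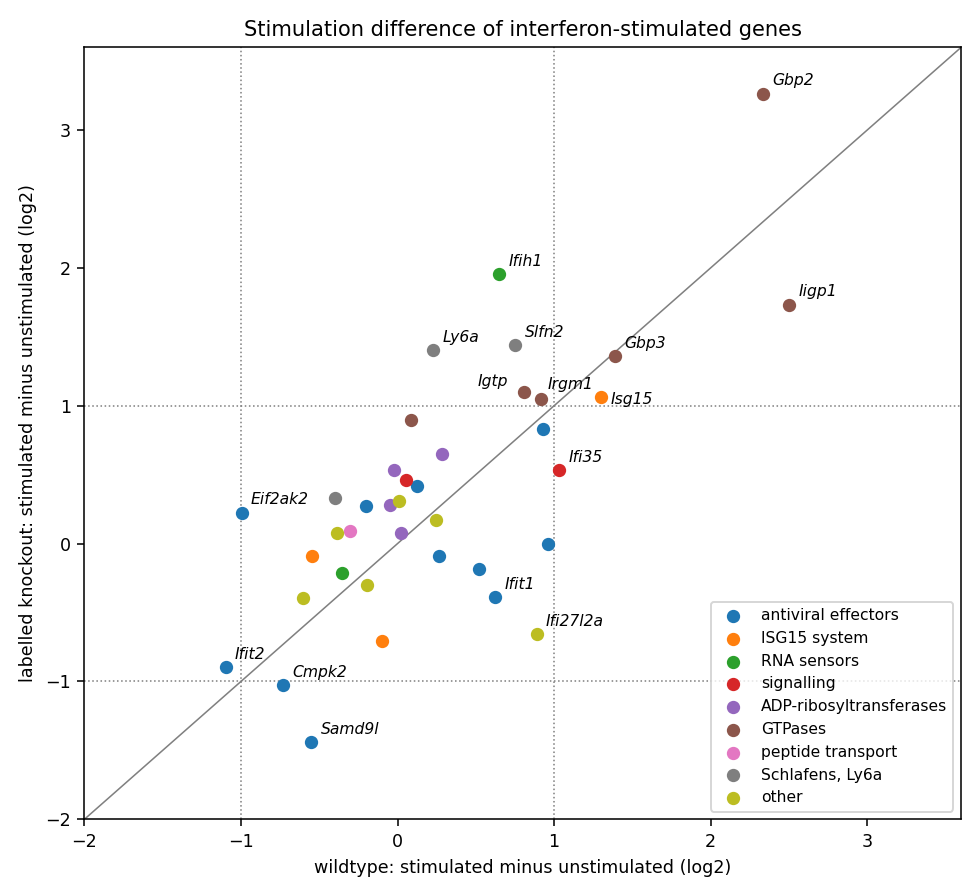
Log2 stimulation difference of each measured member in wildtype (horizontal axis) and in cells labelled knockout (vertical axis), 1 point per gene, coloured by role; dotted lines mark 2-fold and the diagonal marks equal differences. Gbp2 (2.34 and 3.26), Iigp1 (2.50 and 1.73), Gbp3 (1.39 and 1.36) and Isg15 (1.3 and 1.07) lie past 2-fold on both axes.

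The GTPases were the role with the most members past 2-fold after stimulation. These proteins coat the vacuoles of intracellular pathogens, and all 6 measured had a positive difference in both genotypes, except that Irgm2 was negative in wildtype when the arrays were scaled to their medians. In wildtype 3 of 6 were at least 2-fold higher, with a median of 1.15, and in cells labelled knockout 5 of 6, with a median of 1.23, or 3 of 6 in the authors' normalized values, where Igtp and Irgm1 fell short. Gbp2, a guanylate-binding protein, had a level of 3.61 on the unstimulated and 5.95 on the stimulated wildtype array, and of 3.48 and 6.74 on the arrays labelled knockout. It was 2.34 higher after stimulation in wildtype and 3.26 higher in cells labelled knockout, on the log2 scale, and its stimulated levels lay far above both unstimulated ones.

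Gbp3, of the same family and separated from Gbp2 on the chromosome by Gbp2b alone, was at 1.34 and 2.73 in wildtype and at 1.25 and 2.61 in cells labelled knockout. Those differences, 1.39 and 1.36, were nearly equal, unlike those of Gbp2, which were 0.93 apart. Iigp1, an immunity-related GTPase, was at -0.90 and 1.59 in wildtype, a difference of 2.50, and at -0.47 and 1.26 in cells labelled knockout, a difference of 1.73. Its 2 probes moved alike, by 2.90 and 2.10 in wildtype and by 2.18 and 1.29 in cells labelled knockout.

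The regulatory members of the immunity-related GTPases, which guard the cell's own membranes, differed less. Igtp (also Irgm3) had levels of 5.55 and 6.36 in wildtype and of 5.40 and 6.51 in cells labelled knockout, differences of 0.81 and 1.10. Irgm1 had levels of 2.05 and 2.97, then 1.99 and 3.04, differences of 0.92 and 1.05. Both sat within 0.2 of the 2-fold line in each genotype, and the difference between genotypes was not tested. Irgm2, next to Igtp, was at 3.45 and 3.53 in wildtype and at 3.17 and 4.06 in cells labelled knockout, differences of 0.09 and 0.89. None of the 6 GTPases reached 2-fold between genotypes in either state, except Gbp2 with stimulation when the arrays were scaled to their medians.

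The ISG15 system attaches and removes a ubiquitin-like tag. Isg15, the tag itself, had levels of 0.48 and 1.79 in wildtype and of 0.81 and 1.87 in cells labelled knockout. It was 1.3 higher after stimulation in wildtype and 1.07 higher in cells labelled knockout, and its 2 probes gave 1.27 and 1.34 in the first and 0.99 and 1.14 in the second. In the authors' normalized values these probes gave 0.79 and 1.14 in cells labelled knockout, which average below 2-fold. Usp18, the protease that removes the tag and restrains the type I receptor, was at 1.82 and 1.72 in wildtype and at 2.40 and 1.69 in cells labelled knockout. Trim25, a ubiquitin ligase of RIG-I signalling, was at 4.16 and 3.61, then 4.27 and 4.18, and neither it nor Usp18 reached 2-fold in any comparison.

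Antiviral effectors, 11 of them measured, included no member that was 2-fold higher after stimulation in either genotype, except Zbp1 by single probes. Its brightest probe gave 1.23 in cells labelled knockout, and its other probe 1.08 in wildtype. Ifit2, which binds RNA and promotes cell death, was at 0.14 and -0.96 in wildtype and at -0.52 and -1.42 in cells labelled knockout, differences of -1.10 and -0.89. Its neighbour Ifit3 had differences of 0.52 and -0.18, at levels of 1.95 and 2.47 in wildtype and 2.39 and 2.21 in cells labelled knockout; whether its probe also binds transcripts of the neighbouring copy Ifit3b was not tested. The adjacent pair of Ifit genes thus had differences of opposite sign in wildtype.

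Samd9l, a restriction factor of poxviruses, was at 2.52 and 1.97 in wildtype and at 2.94 and 1.5 in cells labelled knockout. The difference was -0.55 in the first and -1.44 in the second, and both probes were lower after stimulation in each genotype. Cmpk2, a mitochondrial nucleotide kinase encoded next to Rsad2, had levels of -1.44 and -2.17 in wildtype and of -1.69 and -2.71 in cells labelled knockout, a difference of -1.03 in the latter. Its 2 probes differed from each other by 1.64 in the wildtype difference (-1.55 and 0.08), at levels where spots are noisy. Rsad2 (viperin), which makes a chain-terminating nucleotide, was at -1.74 on both unstimulated arrays, at -0.79 on the stimulated wildtype array and at -1.75 on the stimulated array labelled knockout. It was thus higher on the stimulated wildtype array alone, by 0.96, short of 2-fold.

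Zbp1, a sensor of Z-form nucleic acid, was 0.93 higher after stimulation in wildtype and 0.83 higher in cells labelled knockout. The dsRNA editor Adar, the tetherin Bst2 and the exonuclease Isg20 stayed within 2-fold in all 5 comparisons. Between the stimulated arrays, however, Isg20 and Bst2 passed it with median scaling and Isg20 with its brightest probe, and Adar passed it in the difference of the stimulation differences with its brightest probe (-1.08). Adar's 2 probes had wildtype stimulation differences of -0.24 and 0.77, so their mean hides a disagreement.

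RNA sensing and interferon signalling members were few. Ifih1 (MDA5), the sensor of long double-stranded RNA, was at -0.35 and 0.30 in wildtype and at -0.30 and 1.66 in cells labelled knockout, differences of 0.65 and 1.95. Dhx58 (LGP2), its regulator, ranged over 0.35 across the arrays. Ifi35, a leucine zipper protein, was the single member higher in wildtype and short of 2-fold in cells labelled knockout, at 0.09 and 1.12 in the first and 0.20 and 0.74 in the second. Stat2, the factor of the type I complex, was at 4.11 and 4.17 in wildtype and at 4.09 and 4.55 in cells labelled knockout. Tap1, which carries peptides to class I molecules, ranged over 0.36.

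The ADP-ribosyltransferases Parp9, Parp12 and Parp14 and the ubiquitin ligase Dtx3l, partner of Parp9, did not reach 2-fold in any comparison. Parp9 had the smallest range of any member above the floor, 0.08 over the 4 arrays, with levels of 3.06 to 3.14. Parp14, Dtx3l and Parp9 are neighbours on the chromosome, and their wildtype stimulation differences were 0.29, -0.05 and 0.03.

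Among the Schlafens and Ly6 genes, Slfn2, which maintains T cell quiescence in mice, was at 3.39 and 4.15 in wildtype and at 3.28 and 4.72 in cells labelled knockout. It was 0.75 higher after stimulation in wildtype and 1.44 higher in cells labelled knockout. Its neighbour Slfn1 had differences of -0.40 and 0.33. Ly6a (Sca-1), a surface protein of stimulated and memory T cells in mice, was at 4.08 and 4.30 in wildtype and at 4.08 and 5.49 in cells labelled knockout, differences of 0.22 and 1.40. The 4.08 of the unstimulated arrays was equal in both genotypes, and the stimulated array labelled knockout alone stood above the others.

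The second question is how the genotypes differed. Without stimulation none of the 38 members was 2-fold higher in cells labelled knockout, where 3.31% of 14005 genes were, and 1 member, Xaf1, was 2-fold lower (2.63%), where 1.42% of all genes were. The median difference was 0.00 over the members and -0.02 over all genes, and 30 members lay within 0.5 of 0. Slfn1, at -0.84, and Ifit2, at -0.66, had the next lowest differences, and Ifi44, whose wildtype level was at the floor, the highest, at least 0.62.

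The call of Xaf1, a proapoptotic interferon-stimulated gene, rests on 1 of its 2 probes. Probe A_55_P1966838 had levels of 3.93 and 3.11 on the wildtype arrays and of -0.34 and -0.81 on the arrays labelled knockout. Probe A_55_P1966833 had levels of -0.60 and -0.17 on the wildtype arrays and of 0.74 and 0.61 on those labelled knockout. The genotype difference was thus -4.26 by the first and 1.34 by the second without stimulation, and -3.91 and 0.78 with it. Both probes carry the same accession on the array, no other member had probes 2-fold different in opposite directions, and the means, -1.46 and -1.57, describe neither probe. In the authors' normalized values the same probes differed by -4.35 and 1.33 without stimulation.

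**Figure D4:**
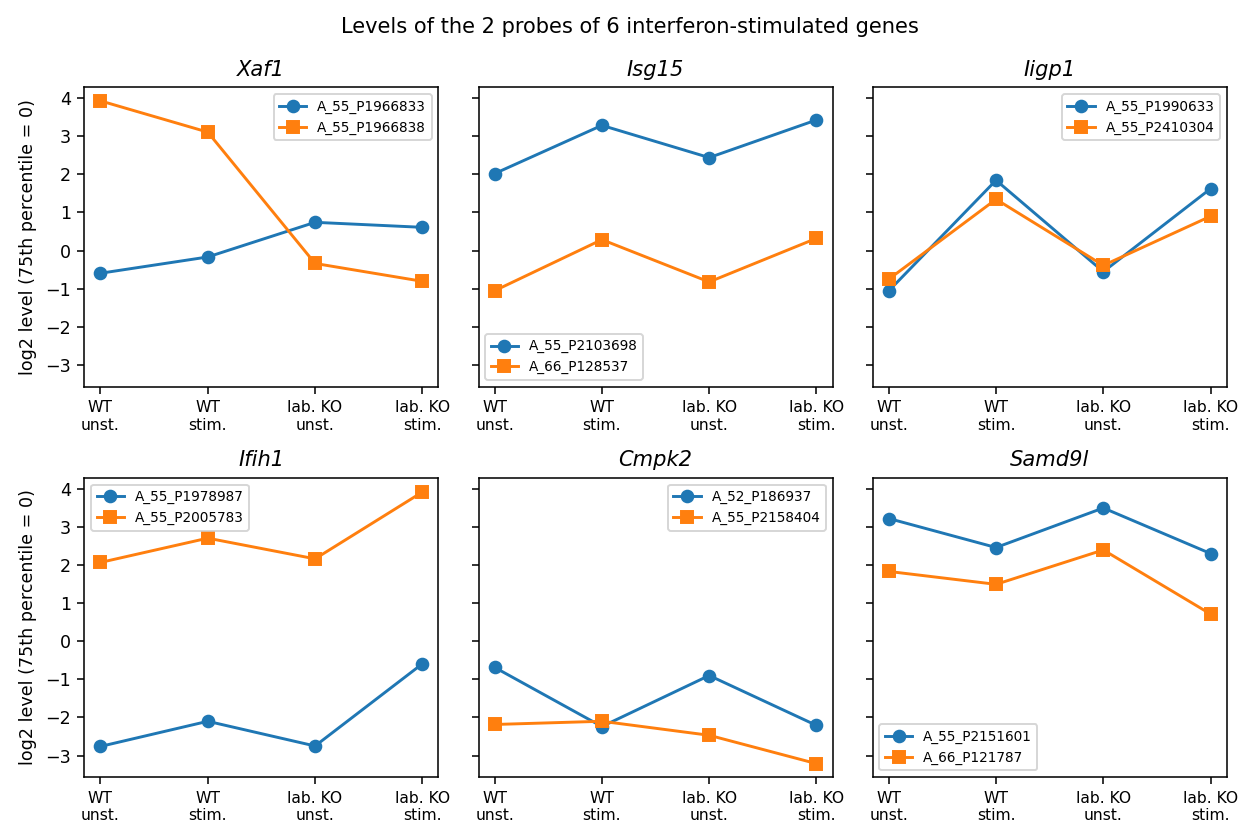
Levels (log2, 75th percentile of the array = 0) of the 2 probes of 6 members on the 4 arrays, 1 line per probe; WT is wildtype, lab. KO labelled knockout, unst. unstimulated and stim. stimulated. The Xaf1 probes cross, at 3.93 and -0.60 on the unstimulated wildtype array against -0.34 and 0.74 on the unstimulated array labelled knockout, whereas those of Isg15, Iigp1 and Ifih1 run alongside each other.

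With stimulation, 3 of 38 members were 2-fold higher in cells labelled knockout than in wildtype (7.89%), namely Eif2ak2, Ifih1 and Ly6a, where 4.98% of 14626 genes were. Xaf1 and Ifit1 were 2-fold lower (5.26%), where 8.13% were, and the medians were 0.14 over the members and 0.09 over all genes. For the difference between the stimulation differences, 3 members were at least 2-fold higher in cells labelled knockout (Ifih1, Eif2ak2 and Ly6a), where 7.07% of 15227 genes were. Ifi27l2a and Ifit1 were at least 2-fold lower, where 10.6% were, with medians of 0.21 and 0.09. All of these values use the stimulated wildtype array. Over all genes past 2-fold between the stimulated arrays, the share of higher ones was 38.0%, but 51.8% in the authors' normalized values, 59.97% with median scaling, 26.4% with the 75th percentile taken over probes above the floor and 90.5% with the pseudocount, so counts near the 2-fold line depend on the scaling.

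Eif2ak2 (PKR), which halts translation on binding double-stranded RNA, was at -1.40 and -2.39 in wildtype and at -0.92 and -0.69 in cells labelled knockout. It was 1.70 higher in stimulated cells labelled knockout than in stimulated wildtype, and the low value belongs to the stimulated wildtype array. Of the genotype difference of Ifih1 with stimulation, 1.36, its 2 probes gave 1.51 and 1.21, against 0.05 for the gene without stimulation. In the authors' normalized values they gave 1.58 and 0.98 with stimulation, and 1.64 and 0.87 in the difference of the stimulation differences. The second, brighter probe was thus short of 2-fold there, and the first had levels of only -2.76 to -0.59. Ly6a differed by 1.18 with stimulation and by 0.00 without, and in the authors' normalized values it differed by 0.996 with stimulation, almost on the 2-fold line.

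Ifit1, which binds RNA lacking cap methylation, was at 0.22 and 0.84 in wildtype and at 0.15 and -0.24 in cells labelled knockout. The unstimulated arrays differed by -0.06 and the stimulated ones by -1.08. Ifi27l2a, a small hydrophobic protein of the Ifi27 family, was at 5.69 and 6.58 in wildtype and at 6.24 and 5.58 in cells labelled knockout, so that its stimulation differences were 0.89 and -0.66. Its neighbour Ifi27 had differences of -0.60 and -0.40. The 9 members with their highest level on the stimulated wildtype array were Ifit1, Ifit3, Rsad2, Ifi35, Parp9, Adar, Gbp3, Iigp1 and Ifi27l2a. For Adar this held for 1 of its 2 probes, the other being lowest there, at 1.81. That array also held the neutrophil, monocyte and red cell markers, whose part in these levels was not tested.

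**Figure D5:**
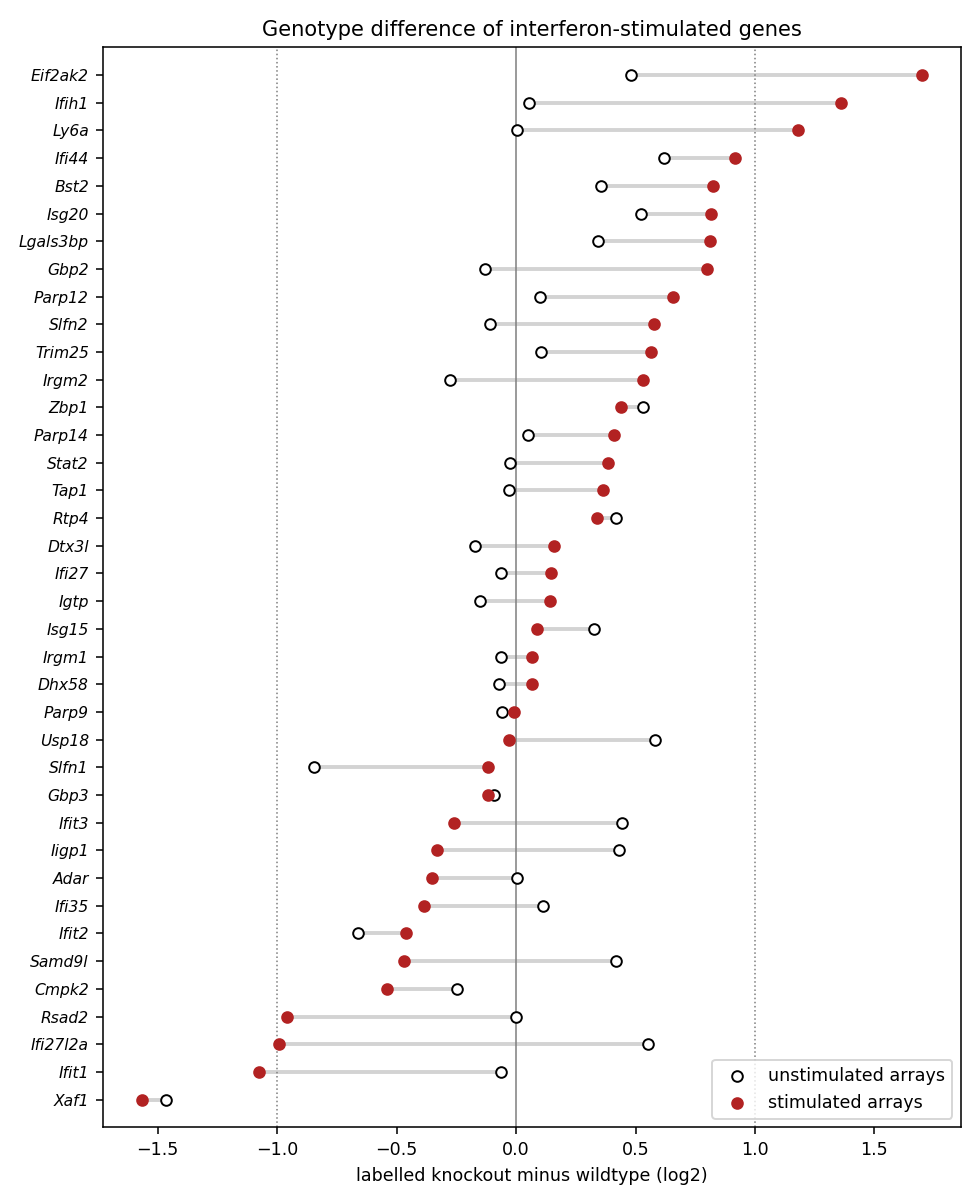
Log2 difference of labelled knockout minus wildtype (horizontal axis) for each measured member (rows), without stimulation (open points) and with it (filled points); dotted lines mark 2-fold. All members but Xaf1 lie within 2-fold without stimulation, and with it Eif2ak2 (1.70), Ifih1 (1.36) and Ly6a (1.18) lie above and Ifit1 (-1.08) and Xaf1 (-1.57) below.

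In all, 17 members were 2-fold different in at least 1 of the 5 comparisons and 21 in none, the latter with differences from -0.96 to 0.96. The same share was not computed over all genes, so whether this count sets the members apart is not known. Among the 21, Rtp4, Ifi27, Lgals3bp and Ifi44 had ranges over the arrays of 0.59, 0.60, 0.81 and 0.93. The ranges of Dhx58, Stat2, Parp9, Dtx3l, Adar and Tap1 over the 4 arrays were under 0.5.

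The rest of the pathway was read from 93 other genes, of which 88 had a named probe. In wildtype 13 of 83 measured were 2-fold higher after stimulation and 13 lower (15.7% each, against 14.2% and 12.8% of all genes). In cells labelled knockout 12 of 80 were higher (15.0%, against 13.5%) and 11 lower (13.8%, as over all genes), so these shares were near the background. Ifng, the interferon that T cells make, was at -1.42 and 1.04 in wildtype and at -1.59 and 3.64 in cells labelled knockout. It was 2.47 higher after stimulation in wildtype and 5.23 higher in cells labelled knockout, and its part in the GTPase differences was not tested. Ifnb1, Ifna4 and Ifnk were at the floor on all arrays. Ifna1 and Ifna5, at the floor or within 0.1 of it on the unstimulated wildtype array, were at -2.84 and -2.44 on the stimulated wildtype array. Ifne went the other way, from -2.83 to the floor. In cells labelled knockout Ifna1 was at the floor on both arrays, and Ifna5 went from -3.96 to the floor. Between the floor and -3 the SD between spots of the wildtype stimulation difference was 0.816.

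Of the 4 receptor chains, 3 had lower values after stimulation in both genotypes. Ifngr2 was at 3.12 and 1.38 in wildtype and at 2.98 and 2.28 in cells labelled knockout, and Ifnar2 at 1.80 and 0.74, then 2.10 and 1.28. Ifngr1 was at 4.94 and 5.42, then 4.87 and 5.0, so 2 chains were 2-fold lower in wildtype and none in cells labelled knockout. Among the 9 kinases and factors Jak2, the kinase of the gamma receptor, was higher in both genotypes, by 1.33 and 1.74, and Tyk2 was lower in wildtype, by -1.07. Socs1, which blocks JAK kinases, was at 3.88 and 4.70, then 4.18 and 6.05, and the DNA-sensing adaptor Sting1 at 5.69 and 3.58, then 5.69 and 4.41.

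Of 48 other interferon-inducible genes measured in wildtype, 8 were higher after stimulation and 6 lower (16.7% and 12.5%, against 14.2% and 12.8% of all genes). Of 47 in cells labelled knockout, 9 were higher and 6 lower (19.1% and 12.8%, against 13.5% and 13.8%). Cxcl10, the chemokine that recruits T cells, was higher by 3.88 and 4.28, and Cd274 (PD-L1) by 2.79 and 3.02. Of 7 further GTPases in this list, 4 were 2-fold higher in cells labelled knockout and none in wildtype, with differences in wildtype and labelled knockout of 0.64 and 1.10 for Gbp4, 0.52 and 1.67 for Gbp5, 0.88 and 1.37 for Gbp6 and 0.49 and 1.03 for Ifi47. The other 3 passed 2-fold in neither, at 0.36 and 0.72 for Gbp7, -0.41 and -0.11 for Gbp9 and 0.74 and 0.79 for Tgtp1. The differences between genotypes were not tested. Without stimulation, 4 of 47 of these genes were higher in cells labelled knockout (8.51%, against 3.31% of all genes) and none lower (against 1.42%), and 3 of the 4 belong to the oligoadenylate synthetases. Oas1a was at -0.78 on the wildtype and 0.87 on the labelled knockout array, Oasl1 at -0.72 and 0.93, and Oasl2 at the floor and -0.43, at least 4.58 higher. Oas2 and Oas3 of the same family differed by 0.33 and 0.19. The members Ifit1, Isg15 and Usp18 had unstimulated genotype differences of -0.06, 0.33 and 0.58.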

How the data were processed

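RNA of 4 samples was hybridised to 1 single-colour Agilent array each, 1 per group. Per the file headers, the first deposited table gives linear spot intensity without normalization between arrays, from Agilent Feature Extraction 10.7.3.1 (submitters' processing notes), and has no background, detection or saturation columns. Per its header, the second holds log2 values for 17878 probes, which the authors normalized in GeneSpring GX 11.5.1. Its column medians were 8.54 and 8.51 for unstimulated and stimulated wildtype and 8.53 and 8.54 for the arrays labelled knockout, and its distance from quantile-normalized log2 intensities had an SD of at most 0.0253, which settled its log2 scale and array order. Neither the filter behind it nor the genome build is stated.

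From the intensities, control spots (1377 of 44397) were dropped, the log2 values of a probe's spots averaged, and each array's 75th percentile subtracted. Values under the floor, the median over arrays of their 40th percentile (-5.01), were set to it. Of 39429 probes, 26293 were named by RefSeq accession (GRCm38.p6, names and neighbours only), giving 19892 genes, and a gene's probes were averaged. Differences with 1 side at the floor are bounds, written "at least". With 1 array per group no test was run, and genes were called at 2-fold. The members, roles, pathway and marker lists were chosen with earlier results of these data known. Members 2-fold different in any comparison, and Irgm2, Rsad2, Stat2 and Usp18, are described by the values of every array. Values were recomputed under 8 alternatives, and under 1 more chosen after seeing the data, which leaves out the stimulated wildtype array. One gene of the pathway lists is not reported here. The steps were tested on simulated data with differences larger than 2-fold planted in bright genes. How well they recover differences in dim genes or near the 2-fold line was not tested. Python 3.11.15, numpy 2.4.6, pandas 2.3.3 and matplotlib 3.10.9 were used.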

Additional observations from a re-analysis of the deposited data

Results flagged for a closer look

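Ifit1, Eif2ak2 and Ifi27l2a drew attention because their stimulation differences had opposite signs in wildtype and in cells labelled knockout and lay at least 2-fold apart. Opposite signs alone were not particular to them, since only 26 of 38 members shared the sign. For Ifit1 the stimulation difference was 0.62 in wildtype and -0.39 in cells labelled knockout, and the second was lower than the first by -1.01. For Eif2ak2 the values were -0.996 and 0.22, a difference of 1.22, at levels where the SD between spots of such a difference was 0.573; the 0.22 is smaller than the SD between spots of its own comparison, 0.397. For Ifi27l2a they were 0.89 and -0.66, a difference of -1.54, and its genotype difference accordingly turned from 0.55 without stimulation to -0.99 with it, again -1.54 apart. Each value stands on 1 array per group, all 3 use the stimulated wildtype array, and the differences between genotypes were not tested.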

How the results depend on the processing

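No direction of the 28 gene values called at 2-fold reversed in the alternatives. Of these values 19 stayed past 2-fold in all alternatives and 9 did not, while 21 further values, of 16 members, passed 2-fold in at least 1. Both Xaf1 calls are among the 19, but no alternative read its dimmer probe alone, which differed in the opposite direction. The count of 5 members higher in stimulated wildtype and 9 in stimulated cells labelled knockout stayed within 1.5 times in every alternative. Of 126 counts and medians 27 moved by more. Members lower in stimulated wildtype were 2 in place of 1 in the authors' values, with median scaling, quantile normalization, a pseudocount in place of the floor, and the brightest probe, and the median was -0.12 with median scaling. Members lower in stimulated cells labelled knockout were 1 in place of 2 in the authors' values, median scaling, quantile normalization, the higher floor and the pseudocount. Their median was 0.17 in the authors' values and with quantile normalization and 0.14 when the 75th percentile was taken over probes above the floor. For labelled knockout against wildtype with stimulation, members higher were 7 with median scaling and 5 with the pseudocount or the brightest probe, and members lower 1 with median scaling and 4 with the percentile over probes above the floor, with medians of 0.35 and -0.0052. For the difference of the stimulation differences, members higher were 6 with median scaling, and members lower 1 with median scaling, 4 with the percentile over probes above the floor and 1 with the pseudocount, with medians of 0.46 and 0.040 in the first pair. Median scaling moved the median of all genes from 0.09 to 0.28 in the stimulated genotype comparison, from 0.09 to 0.34 in the difference of differences and from -0.02 to -0.23 in wildtype stimulation. In the difference of differences the share of higher genes among those called was 39.9%, against 52.6% in the authors' values, 66.9% with median scaling, 26.5% with the percentile over probes above the floor and 90.3% with the pseudocount. Genes higher in the stimulated genotype comparison numbered 729 and 368 to 5756 in the alternatives, genes lower 1189 and 496 to 1739, and without stimulation 463 and 147 to 779, and 199 and 54 to 531. In the difference of differences they numbered 1076 and 621 to 6950, and 1619 and 666 to 2303, in wildtype stimulation 2079 and 1203 to 2746, and 1870 and 1303 to 6161, and genes lower in stimulated cells labelled knockout 1962 and 1259 to 2324, each widest with the pseudocount or a changed floor. The number of genes measured changed as well. In the stimulated genotype comparison it was 14626, against 10370 with the higher floor and 19892 with the pseudocount. The pseudocount of 16 was added to the signal before scaling, on arrays of unlike brightness. The part of either in these counts was not tested. Past 2-fold no longer were Cmpk2, Igtp, Irgm1 and Isg15 in cells labelled knockout, Ifi35 in wildtype, and Ifit1 and Ly6a in the 2 comparisons of genotype that use stimulated arrays, each in at least 1 alternative. Without the stimulated wildtype array, chosen after seeing the data, the member counts of the remaining comparisons stayed the same. Counts over all genes became 1923 higher and 1972 lower after stimulation of cells labelled knockout, and 464 and 201 between the unstimulated arrays. These comparisons do not use that array, and each array was scaled by itself. Leaving it out could therefore move only the floor, so the unchanged member counts are no check on the results. No paired analysis was possible because each group has 1 array and the results come from no test. Background correction and the filter on dim probes by detection flag could not be varied, since the tables hold no such columns. Signal near the floor limits Ifi44, Slfn5, Cmpk2, Rsad2 and Eif2ak2.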

Other observations

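The interferon-inducible transmembrane genes, which block virus entry and are also expressed by myeloid cells, were higher after stimulation in both genotypes, with larger values on the stimulated wildtype array. Ifitm3 was at -1.06 and 3.39 in wildtype and at -0.19 and 1.48 in cells labelled knockout, and Ifitm1 at -2.46 and 0.64, then -1.47 and -0.26. Mndal, a nuclear protein of the HIN-200 family, was at -0.55 and 1.56 in wildtype and at -1.47 and -3.38 in cells labelled knockout, so that stimulation differed by 2.11 and -1.90. None of these differences between genotypes was tested, and the stimulated wildtype array also held the neutrophil and monocyte markers.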
